A study of Triticum aestivum with 161 samples.

Results

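The comparison described here is the upper nitrogen step in developing wheat grain (caryopses, Triticum aestivum) at Rothamsted in the 2010 season, from 200 to 350 kg of nitrogen per ha. The arrays were chosen by their titles, which gave 18 arrays at 350 kg per ha (N350) and 18 at 200 kg per ha (N200), 36 of the 161 arrays of the series. Each nitrogen level held 3 arrays of each of 6 cultivars (Cordiale, Hereward, Istabraq, Malacca, Marksman and Xi_19), and differences were taken within a cultivar and then averaged over the 6 with equal weight. The study sampled the same cultivars at 100 kg per ha (N100) and in other seasons and at another site. All grain was taken 21 days after anthesis, and 1 Affymetrix wheat array was hybridised per sample. The labels number the arrays of a group as biological replicates without saying what separates them, so p-values measure the spread between these samples. That spread was pooled over the 54 arrays of Rothamsted 2010, N100 included. The labels give neither the timing of the nitrogen nor the stage of the grain beyond its age in days.

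A caryopsis is a whole grain: a large starchy endosperm surrounded by aleurone, seed coat and pericarp, with a small embryo. At this age the endosperm deposits starch and storage proteins, chiefly the gliadins and glutenins of gluten, and nitrogen supply is a main determinant of how much protein a grain stores. Protein classes generally respond to nitrogen unequally, with sulphur-poor gluten proteins among the most responsive. In RNA from whole grains, fewer cells of a type and less RNA per cell cannot be told apart.

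Values are log2 signals made by the authors with RMA, between 1.59 and 14.97 (Rothamsted 2010 is meant wherever no season is named), and differences are N350 minus N200 on that log2 scale unless stated. Of 61178 probe sets tested, 23682 (38.7%) had a mean of 6 or more, and 200 belonged to 1 of 102 genes with an informative name. The search for starchy endosperm markers matched 12 named genes, and 17 of their 18 probe sets had a mean of at least 6, up to 14.87. Embryo markers (9 of 9 probe sets), aleurone and seed coat markers (9 of 9) and green pericarp markers (9 of 32) also had means of at least 6, and no probe set of these 4 classes was called between N350 and N200. Replicates of a group differed more at N350 than at N200. Over probe sets of mean 6 or more, the median SD between replicates was 0.192 at N350, 0.167 at N200 and 0.1545 at N100. The tests pooled the spread over these levels, so N100, with the smallest SD, enters the error of N350 minus N200. The 3 arrays farthest from their group means, of Cordiale replicate 1, Hereward replicate 2 and Malacca replicate 1, were all N350 arrays. The signal of 3' minus 5' control probe sets, a measure of RNA integrity, averaged -1.151 at N350 and -1.093 at N200.

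Few transcripts were called over the upper step, and no gene with an informative name was called higher. All 5 serpin probe sets were above 0 but missed the threshold. Genes for avenin-like storage proteins (ALP and avnla), a chymotrypsin inhibitor (wci) and a small heat shock protein (hsp16.9A) were called lower. With limma, 99 of 61178 probe sets (0.162%) passed an adjusted p of 0.05, of which 18 (0.0294%) were higher and 81 (0.132%) lower at N350. The lower step, N200 against N100, uses the same N200 arrays, and there 3963 probe sets passed (6.48%), 1555 higher (2.54%) and 2408 lower (3.94%). At an unadjusted p under 0.05 stood 8.68% of all probe sets in the upper step and 20.4% in the lower. A change of at least 1.5-fold was reached by 18 of the called probe sets of the upper step (7 higher, 11 lower) and by 127 of the lower step (87 higher, 40 lower). Over all probe sets of mean 6 or more, the median size of the difference was 0.053 for the upper step and 0.074 for the lower.

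Of the 99 probe sets called in the upper step, 88 had a mean of at least 6. Those called lower were mostly the same way in every cultivar: 61 of 81 were below 0 in 6 of 6 cultivars, and 17 of the 18 called higher were above 0 in 6 of 6. A call on the mean over cultivars favours a shared sign, so these counts are a description only. Over the arrays, the median of the 81, each centred on its mean of 2010, ran from -0.771 to -0.00064 at N350 (median -0.206) and from -0.059 to 0.363 at N200 (median 0.086), with 18 arrays at each level. These values chose the probe sets and are a description only. Among the called probe sets the median SD between replicates was 0.281 at N350 and 0.209 at N200. Of the called probe sets 7 had an informative gene name, which is 3.5% of the 200 such probe sets, beside 0.162% of all probe sets. In the lower step 35 of the 200 were called (17.5%), beside 6.48% of all probe sets. All 7 of the upper step were lower at N350 and belonged to ALP, avnla, wci and hsp16.9A.

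The count of 99 depended on single replicates and cultivars. Leaving out replicate 1 gave 193 calls, and leaving out replicate 2 or replicate 3 gave 0 (3213 and 4094 probe sets with an unadjusted p under 0.05), each left out over all groups. Without 1 cultivar it was 39 (Cordiale), 74 (Hereward), 4 (Istabraq), 17 (Malacca), 0 (Marksman, 3751 unadjusted) and 45 (Xi_19), and it was 0 with the 36 compared arrays alone, where 4602 probe sets had an unadjusted p under 0.05 against 5311 in the fit reported.

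**Figure D1:**
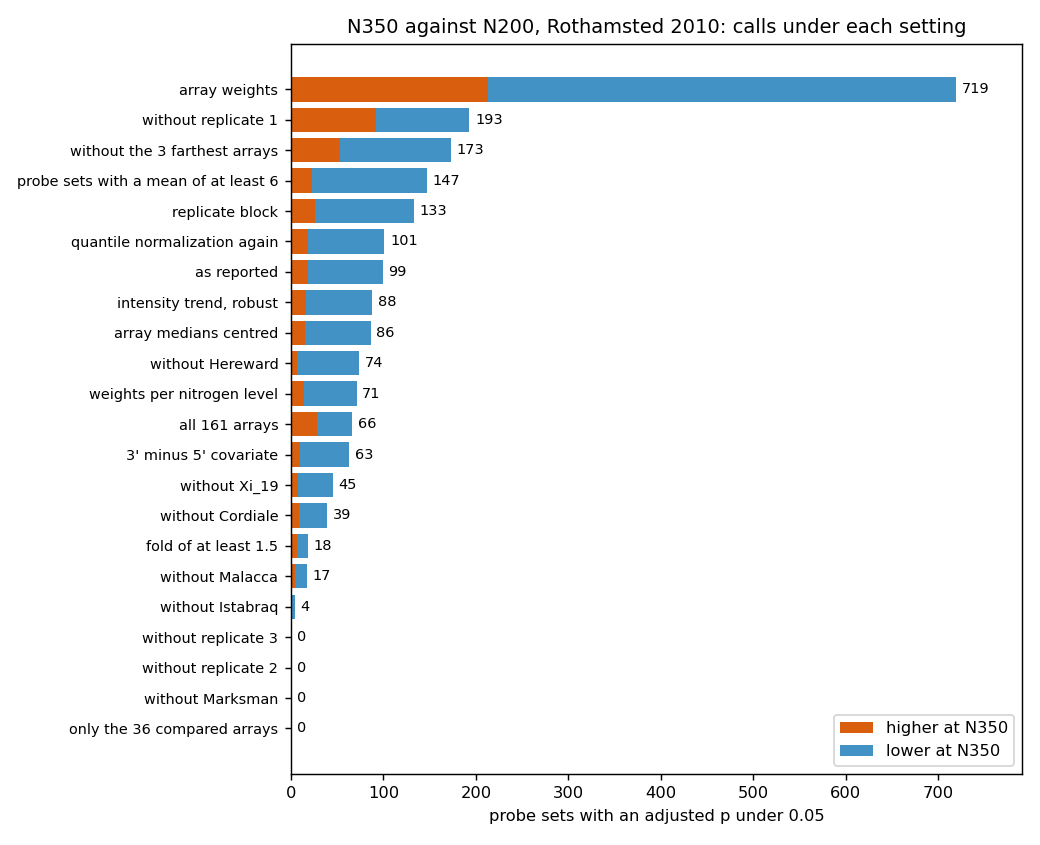
Number of probe sets with an adjusted p under 0.05 for N350 against N200 in 2010 (bars, split into higher and lower at N350) for the fit as reported and for each other setting. The reported fit gave 99, and the settings ran from 0, with the compared arrays alone or without replicate 2, replicate 3 or Marksman, to 719 with array weights.

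Avenin-like proteins are prolamin-related storage proteins of the grain with many cysteines, and ALP and avnla encode members of their b and a types. Of the 6 probe sets of these 2 genes, 5 were called lower at N350, beside 0.132% of all probe sets. The other one, of ALP, was below 0 at -0.092 (adjusted p = 0.522). The median of the 6 was -0.284, beside 0.0075 over all probe sets. All 6 were below 0 in every cultivar, from a median of -0.146 in Xi_19 to -0.453 in Malacca. These probe sets share gene families, so their signals can include related transcripts.

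The probe set of ALP with the suffix S2_at ranged over the 18 arrays from 11.82 to 13.49 at N350, with a median of 12.96, and from 12.29 to 13.72 at N200, with a median of 13.22. Both ranges overlapped over most of their length, and cultivars also differed in level. Every N350 replicate was below every N200 replicate in 2 of 6, Hereward and Istabraq, a pattern that all probe sets showed in 3.43% of cases in Cordiale, 3.15% in Hereward, 4.58% in Istabraq, 3.07% in Malacca, 5.3% in Marksman and 2.68% in Xi_19. In Malacca, the cultivar with the lowest means at N350 and N200, the replicates stood at 11.86, 12.46 and 11.82 at N350 and at 12.29, 12.67 and 12.99 at N200. The difference of ALP was -0.43 (standard error 0.078, adjusted p = 0.00784), which is 0.744 times the N200 level, and it ran from -0.24 in Cordiale to -0.60 in Malacca.

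The other 2 called probe sets of ALP gave smaller differences at higher levels. The probe set with the suffix S2_s_at averaged 13.74 at N350 and 14.04 at N200, a difference of -0.30 (standard error 0.049, adjusted p = 0.00599), with no overlap of replicates in 3 of 6 cultivars. The probe set with the suffix S1_at averaged 13.82 at N350 and 14.05 at N200, a difference of -0.23 (standard error 0.045, adjusted p = 0.0143). Signals near 14 lie close to the top of the scale of these arrays, where differences can be compressed. Its part in these differences was not tested.

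For the S1_at probe set of avnla, the replicates ranged from 12.56 to 13.79 at N350, median 13.46, and from 13.07 to 14.10 at N200, median 13.64. N350 replicates were below all N200 replicates in 3 of 6 cultivars, Hereward, Istabraq and Malacca, and overlapped in the other 3. Of all probe sets, 3.15%, 4.58% and 3.07% did so in Hereward, Istabraq and Malacca. The difference was -0.32 (standard error 0.058, adjusted p = 0.00704), and the second probe set of avnla, S1_x_at, gave -0.27 (standard error 0.052, adjusted p = 0.0137).

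Both avenin-like genes also fell over the lower step. The median of avnla over 18 arrays was 13.84 at N100, 13.64 at N200 and 13.46 at N350, and that of ALP (S2_at) was 13.61 at N100, 13.22 at N200 and 12.96 at N350. N200 minus N100 was -0.28 for avnla and -0.40 for ALP, and the test of the difference between the steps gave -0.043 for avnla (adjusted p = 0.963) and -0.022 for ALP (adjusted p = 0.987). The upper step covers 150 and the lower 100 kg per ha. The 5 calls lost significance without replicate 2 or 3, without Istabraq, Malacca or Marksman and in the 36 compared arrays alone, and 2 of them (ALP S1_at and avnla S1_x_at) also without Hereward, with adjusted p up to 0.690; without replicate 3 the difference of ALP (S2_at) was -0.28, against -0.53 without replicate 1, and that of avnla (S1_at) was -0.22, against -0.41.

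The chymotrypsin inhibitor gene wci belongs to the family of small cereal inhibitors of trypsin and amylase, abundant sulphur-rich grain proteins that act on digestive enzymes of insects and mammals. Its probe set ranged from 11.64 to 13.70 at N350, median 12.88, and from 12.60 to 13.95 at N200, median 13.27. The ranges overlapped. Every N350 replicate was below every N200 replicate in Cordiale and Hereward, where 3.43% and 3.15% of all probe sets did so. In Marksman replicate 1 at N350 stood apart at 11.64, with the other 2 replicates at 12.77 and 12.69 and the N200 replicates at 12.73, 12.93 and 12.95. In Xi_19, where wci was highest, the levels overlapped, at 13.68, 13.70 and 13.62 at N350 and 13.46, 13.95 and 13.74 at N200.

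Averaged over cultivars wci fell by 0.36 (standard error 0.080, adjusted p = 0.0367), to 0.777 times the N200 level. Cultivar differences ran from -0.045 in Xi_19 to -0.55 in Hereward, and limma's F test over cultivars was not passed (adjusted p = 1). wci also fell over the lower step, and its median was 13.80 at N100, 13.27 at N200 and 12.88 at N350. The call held in 9 of 20 other settings; among those that lost it were each cultivar left out in turn (adjusted p 0.0508 to 0.209), replicate 2 or 3 left out (0.833 and 0.672), quantile normalization again (0.0506) and the 3' minus 5' covariate (0.0849).

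The other inhibitors of the list lay below 0 by less. All 6 probe sets of amylase and trypsin inhibitors were below 0 (median -0.078, and -0.049 without replicate 3), with wci the only one called. ATI, an amylase and trypsin inhibitor represented by 2 annotated genes, differed by -0.055 in the first (adjusted p = 0.560) and by -0.081 in the other (adjusted p = 0.447). These 2 stood at means of 14.62 and 14.47 at N350 and 14.68 and 14.55 at N200, near the top of the scale. In the lower step 5 of the 6 were called lower, beside 3.94% of all probe sets.

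Of the called genes with a name, hsp16.9A changed the most. It encodes a small heat shock protein that binds unfolded proteins and is induced by heat. Its probe set ranged from 7.74 to 12.08 at N350, median 10.46, and from 9.13 to 12.28 at N200, median 11.16. Every N350 replicate was below every N200 replicate in Cordiale, Istabraq and Marksman, where 3.43%, 4.58% and 5.3% of all probe sets did so. The replicates overlapped in the other 3 cultivars. A call favours such a separation, so the counts without overlap of the called genes are a description only. The spread at N350 was wide: Marksman replicates were 7.82, 10.34 and 10.57 at N350 and 11.54, 11.14 and 10.63 at N200, and Xi_19 replicates 8.74, 10.28 and 7.74 at N350 and 10.93, 10.83 and 9.13 at N200.

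The difference of hsp16.9A was -0.97 (standard error 0.21, adjusted p = 0.0307), which is 0.512 times the N200 level, with cultivar values from -0.20 in Hereward to -1.53 in Marksman. It was not called in the lower step, where N200 minus N100 was 0.017 (adjusted p = 0.977). The difference between its steps was -0.98 (adjusted p = 0.475), which did not pass. The call held in 8 of 20 other settings, and adjusted p reached 0.731 without replicate 2, 0.407 without replicate 3, 0.0615 without replicate 1, 0.243 without Istabraq, 0.168 without Marksman, 0.148 without Cordiale, 0.0776 without Xi_19, 0.0703 without Malacca and 0.276 when all 161 arrays set the spread. Control 3' minus 5' signal differed between the levels as given above, and with it as a covariate the difference was -0.93 (adjusted p = 0.0649).

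**Figure D2:**
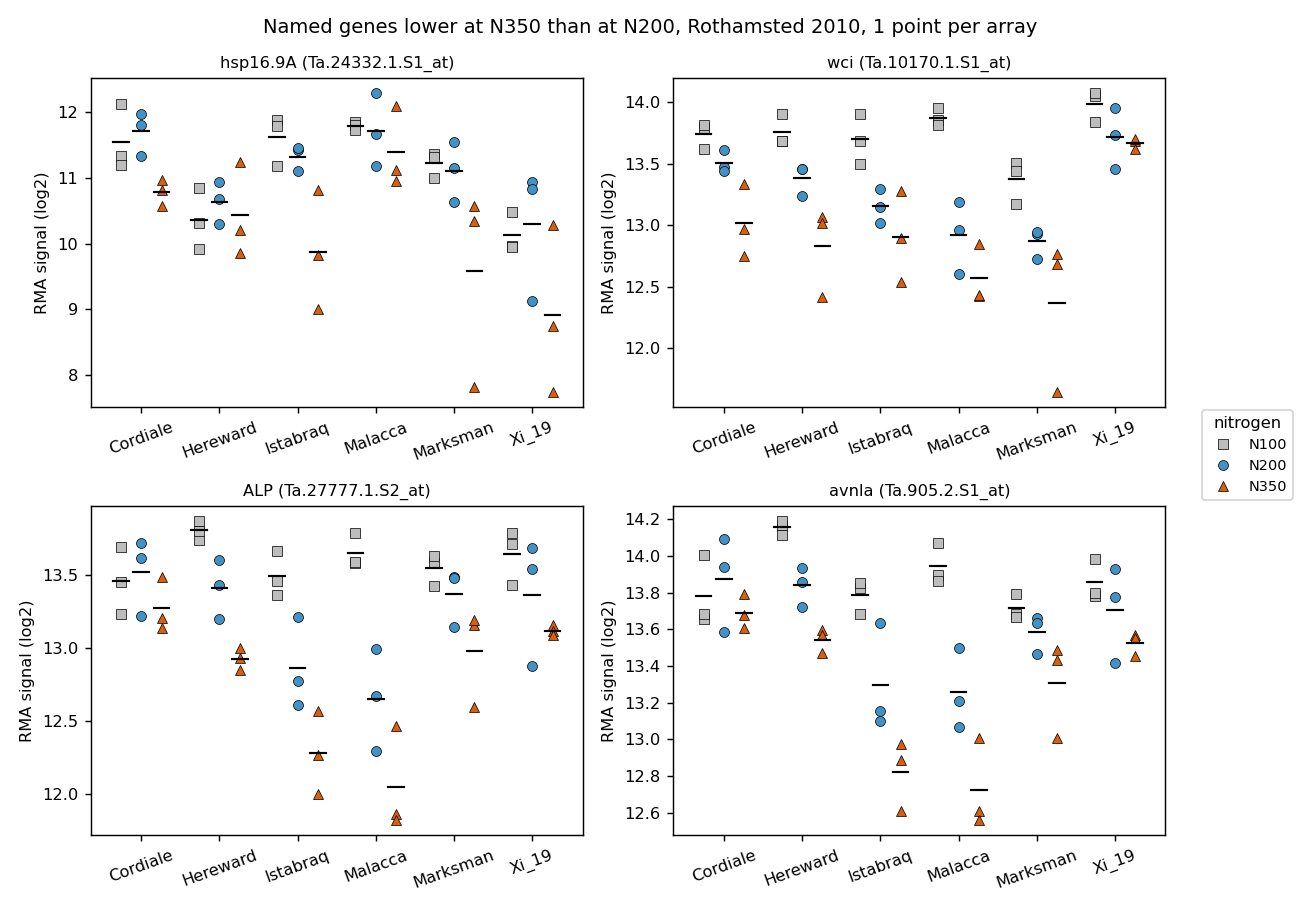
Log2 signals of hsp16.9A, wci, ALP and avnla in each array of Rothamsted 2010 (points) with the mean of 3 replicates (lines), by cultivar and nitrogen level. N350 means lie below N200 means in every cultivar, by -0.20 to -1.53 for hsp16.9A, -0.045 to -0.55 for wci, -0.24 to -0.60 for ALP and -0.18 to -0.53 for avnla, and single N350 replicates of Marksman and Xi_19 lie far below the rest for hsp16.9A.

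Serpins of the WSZ group are inhibitors of serine proteases that are abundant in the endosperm. No serpin passed the test in the upper step, where all 5 probe sets of the 4 genes had a positive difference (median 0.30), above 0 in each of 6 cultivars. All 5 had an unadjusted p under 0.05, a level reached by 8.68% of all probe sets. In the lower step all 5 were called higher, beside 2.54% of all probe sets, with a median of 0.91. The median of the upper step was 0.47 without replicate 1 and 0.19 without replicate 3.

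WSZ1c ranged from 8.29 to 10.69 at N100 (median 9.48), from 9.85 to 11.99 at N200 (median 11.05) and from 10.71 to 12.34 at N350 (median 11.61). Every N350 array was above every N100 array, while N200 overlapped both, with all N350 replicates above all N200 replicates in Malacca alone of the 6 cultivars, where 2.84% of all probe sets did so. N350 minus N200 was 0.58 (standard error 0.14, adjusted p = 0.0716), a ratio of 1.49, against 1.47 for N200 minus N100. Its cultivar differences ran from 0.23 in Cordiale to 0.83 in Marksman. WSZ1c passed the test in 6 of 20 other settings, with adjusted p = 2.14e-05 without replicate 1, where the difference was 0.90, but 0.943 without replicate 2 (0.50) and 0.770 without replicate 3 (0.33).

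The replicates of WSZ2b ranged from 11.25 to 12.88 at N100 (median 12.30), from 12.72 to 13.67 at N200 (median 13.16) and from 12.98 to 13.83 at N350 (median 13.48). In Hereward, Malacca, Marksman and Xi_19 every N350 replicate was above every N200 replicate, a pattern that all probe sets showed in 3.99% of cases in Cordiale, 2.55% in Hereward, 4.37% in Istabraq, 2.84% in Malacca, 4.95% in Marksman and 4.01% in Xi_19. N350 minus N200 was 0.30 (standard error 0.075, adjusted p = 0.0871), against 0.91 for N200 minus N100, and the upper step passed in 3 of 20 other settings.

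WSZ2a ranged from 8.05 to 12.48 at N100 (median 11.80), from 10.33 to 13.33 at N200 (median 12.77) and from 10.36 to 13.47 at N350 (median 13.17). The low end of each range was Malacca, with 10.36, 11.48 and 11.76 at N350 and 10.33, 10.80 and 10.51 at N200. The other 5 cultivars lay between 12.77 and 13.47 at N350 and between 12.32 and 13.33 at N200, and N350 stood above N200 without overlap in 2 cultivars, Hereward and Marksman. The difference was 0.41 (standard error 0.097, adjusted p = 0.0676), against 1.13 in the lower step.

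WSZ1b, the serpin with the highest signal, averaged 14.08 at N350 and 13.99 at N200, a difference of 0.097 (standard error 0.035, adjusted p = 0.365). Its second probe set gave 0.12 (adjusted p = 0.239). The test of the difference between the steps did not pass for any serpin of the panel: the upper step minus the lower was -0.61 for WSZ2b (adjusted p = 0.0871), -0.72 for WSZ2a (adjusted p = 0.129) and -0.89 for WSZ1c (adjusted p = 0.220).

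**Figure D3:**
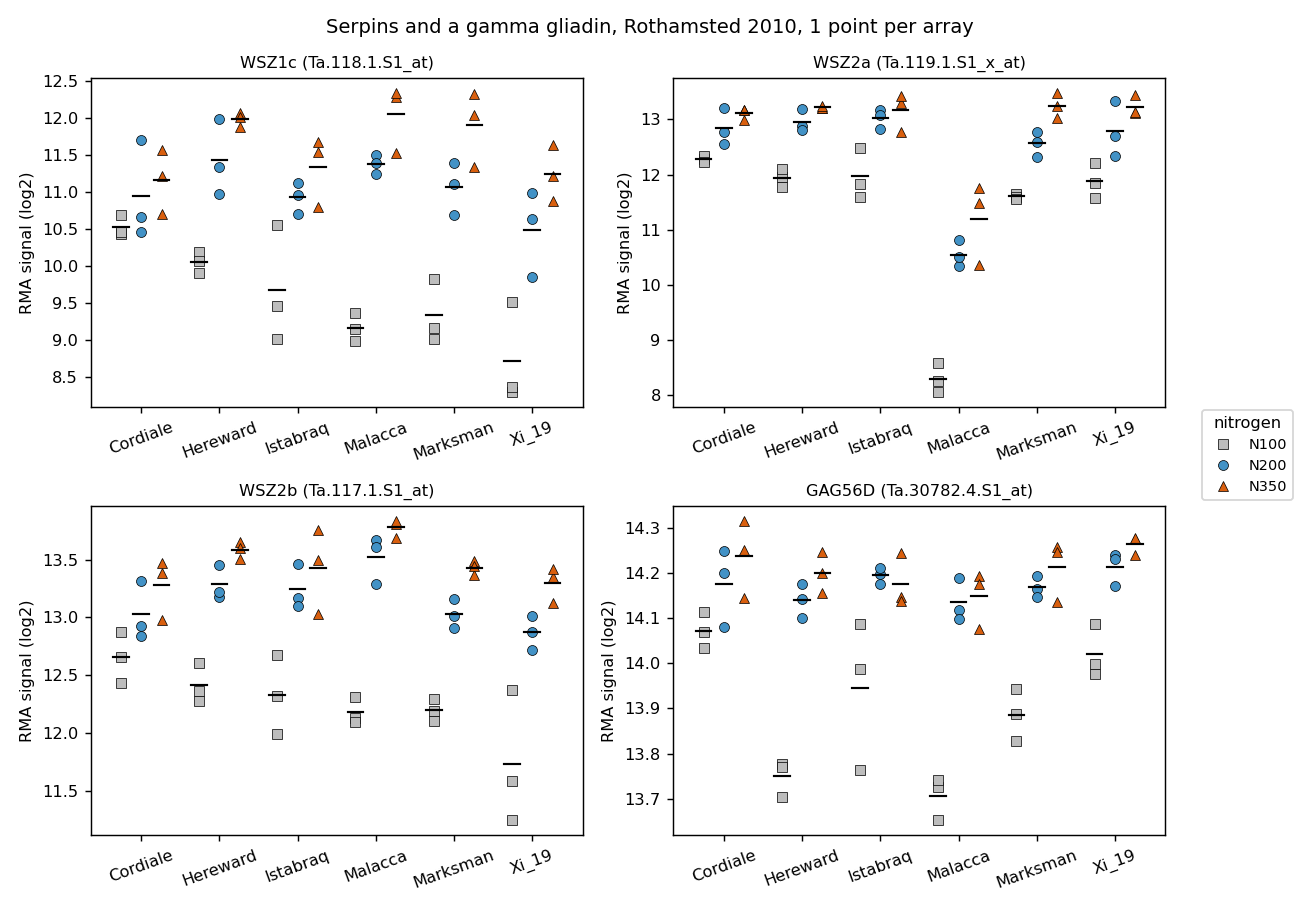
Log2 signals of 3 serpins and of a gamma gliadin probe set in each array of Rothamsted 2010 (points) with the mean of 3 replicates (lines), by cultivar and nitrogen level. The medians over 18 arrays run from 9.48 at N100 over 11.05 at N200 to 11.61 at N350 for WSZ1c, while those of the S1_at probe set of GAG56D are 13.92, 14.18 and 14.22.

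Gamma gliadins are monomeric gluten proteins rich in glutamine and proline. Both highly expressed probe sets of the gamma gliadin GAG56D were called higher over the lower step and were not called over the upper one. The probe set with the suffix S1_x_at ranged from 12.64 to 13.56 at N100 (median 13.17), from 13.51 to 13.79 at N200 (median 13.69) and from 13.42 to 13.91 at N350 (median 13.64). N200 and N350 shared most of their range, and N100 lay lower. Both highly expressed GAG56D probe sets lie near the top of the scale, which ended at 14.97, where differences can be compressed. The part of such compression in the GAG56D values was not tested. N350 minus N200 was -0.017 (standard error 0.043, adjusted p = 0.937), against 0.56 for N200 minus N100 (adjusted p = 6.36e-12).

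The difference between the steps of that GAG56D probe set was -0.57 (standard error 0.074, adjusted p = 6.31e-05). It was 1 of 9 probe sets (0.0147%) for which limma called the steps different, 4 (0.00654%) above and 5 (0.00817%) below 0, with 7.63% of all probe sets at an unadjusted p under 0.05, and the only 1 of them with a gene name. The call held when the steps were divided by their kg of nitrogen (adjusted p = 7.02e-07) and was lost without replicate 2 (adjusted p = 0.542). The S1_at probe set of GAG56D ranged from 13.65 to 14.11 at N100, from 14.08 to 14.25 at N200 and from 14.08 to 14.31 at N350. There the upper step was 0.035 (adjusted p = 0.775), the lower 0.27 and the difference between them -0.24 (adjusted p = 0.0908).

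Alpha gliadins, the other monomeric gluten class on the array, gave 0 called of 5 probe sets over the upper step. All 5 were above 0, with a median of 0.019. Over the lower step 4 of 5 were called higher, beside 2.54% of all probe sets, and the median of the 5 was 0.11. Gli-B2-11, at a mean of 12.54 at N350 and 12.48 at N200, differed by 0.059 (adjusted p = 0.744), against 0.34 over the lower step. Gli-D2-16, the probe set nearest to the top of the scale, averaged 14.92 at N350 and 14.90 at N200, a difference of 0.016 (adjusted p = 0.887). Of the 2 probe sets of Gli-D2-1, the one with the higher signal differed by 0.013 (adjusted p = 0.914). The other averaged 13.31 at N350 and 13.03 at N200, a difference of 0.28 (standard error 0.26, adjusted p = 0.799). Of the glutenins, which form the polymers of gluten, only the low molecular weight gene Glu-D3 had a name here, with 0 of 3 probe sets called. Its probe set with the highest signal averaged 12.37 at N350 and 12.50 at N200, a difference of -0.13 (standard error 0.14, adjusted p = 0.828), and its cultivar differences ran from -1.0 in Istabraq to 0.80 in Hereward.

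None of the 35 probe sets of 6 photosynthesis genes, which mark the green layer of the pericarp, passed over the upper step. Of them 24 were above and 11 below 0, with a median of 0.030. Most were probe sets of rbcl, many of them with low signals. The 11 of the 35 with a mean of at least 6 had a median of 0.017. Over the lower step 5 of the 35 had been called higher, beside 2.54% of all probe sets. PsbP, of the oxygen-evolving complex, ranged from 10.07 to 11.35 at N350 (median 10.49) and from 10.25 to 11.28 at N200 (median 10.48), which is nearly the same range. Its difference was -0.0079 (adjusted p = 0.981), against 0.31 over the lower step (adjusted p = 3.92e-04). PRK, a Calvin cycle kinase, differed by 0.0037 (adjusted p = 0.991), against 0.25 over the lower step. Trx-M, a chloroplast thioredoxin, differed by 0.017 (adjusted p = 0.960), and rbcl, the large subunit of Rubisco, by 0.040 (adjusted p = 0.708).

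Genes of carbohydrate storage were not called. The 4 probe sets of starch synthesis had a median of 0.0050: AGP-S, the small subunit of ADP-glucose pyrophosphorylase, differed by 0.033 (adjusted p = 0.857) and Wx-A1, which encodes the amylose-forming starch synthase, by -0.065 (adjusted p = 0.751). BMY1, a beta-amylase, averaged 7.13 at N350 and 7.19 at N200, with a standard error of 0.23 about a difference of -0.059 (adjusted p = 0.965). Of the 4 fructan probe sets 3 were below 0, among them the fructan exohydrolases 1-FEH at -0.16 (adjusted p = 0.661) and 6-FEH at -0.093 (adjusted p = 0.718).

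The cytoskeleton list was below 0 in 11 of 12 probe sets of 7 genes, with a median of -0.083 (-0.054 without replicate 2) and none called. Over the lower step 4 of the 12 were called lower, beside 3.94% of all probe sets, and the median of the list was -0.19. The tubulin gene tubb2 averaged 12.87 at N350 and 12.98 at N200, a difference of -0.11 (adjusted p = 0.571), and TUBA, an alpha-tubulin, differed by -0.031 (adjusted p = 0.851), against -0.21 over the lower step (adjusted p = 2.67e-04).

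The remaining lists held no call over the upper step. Of 8 defence probe sets 6 were below 0 (median -0.011), with the thionin THI1.3 at -0.0052 (adjusted p = 0.971) and the lipid transfer protein LTP3 at 0.0027 (adjusted p = 0.988). Of 14 redox and detoxification probe sets 8 were below 0 (median -0.0084), with the peroxiredoxin PER1 at -0.0096 (adjusted p = 0.976) and the catalase CAT1 at -0.24 (adjusted p = 0.467). All 4 gibberellin probe sets, of genes for gibberellin 20-oxidases, were above 0 (median 0.016), with GA20ox1a at 0.017 (adjusted p = 0.955) and GA20ox1d at 0.016 (adjusted p = 0.946). The 8 translation probe sets had a median of -0.025, and UBC1, a ubiquitin-conjugating enzyme, differed by -0.040 (adjusted p = 0.767). The lists for nitrogen assimilation and transport and for protein folding matched no named probe set and were not analysed here.

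**Figure D4:**
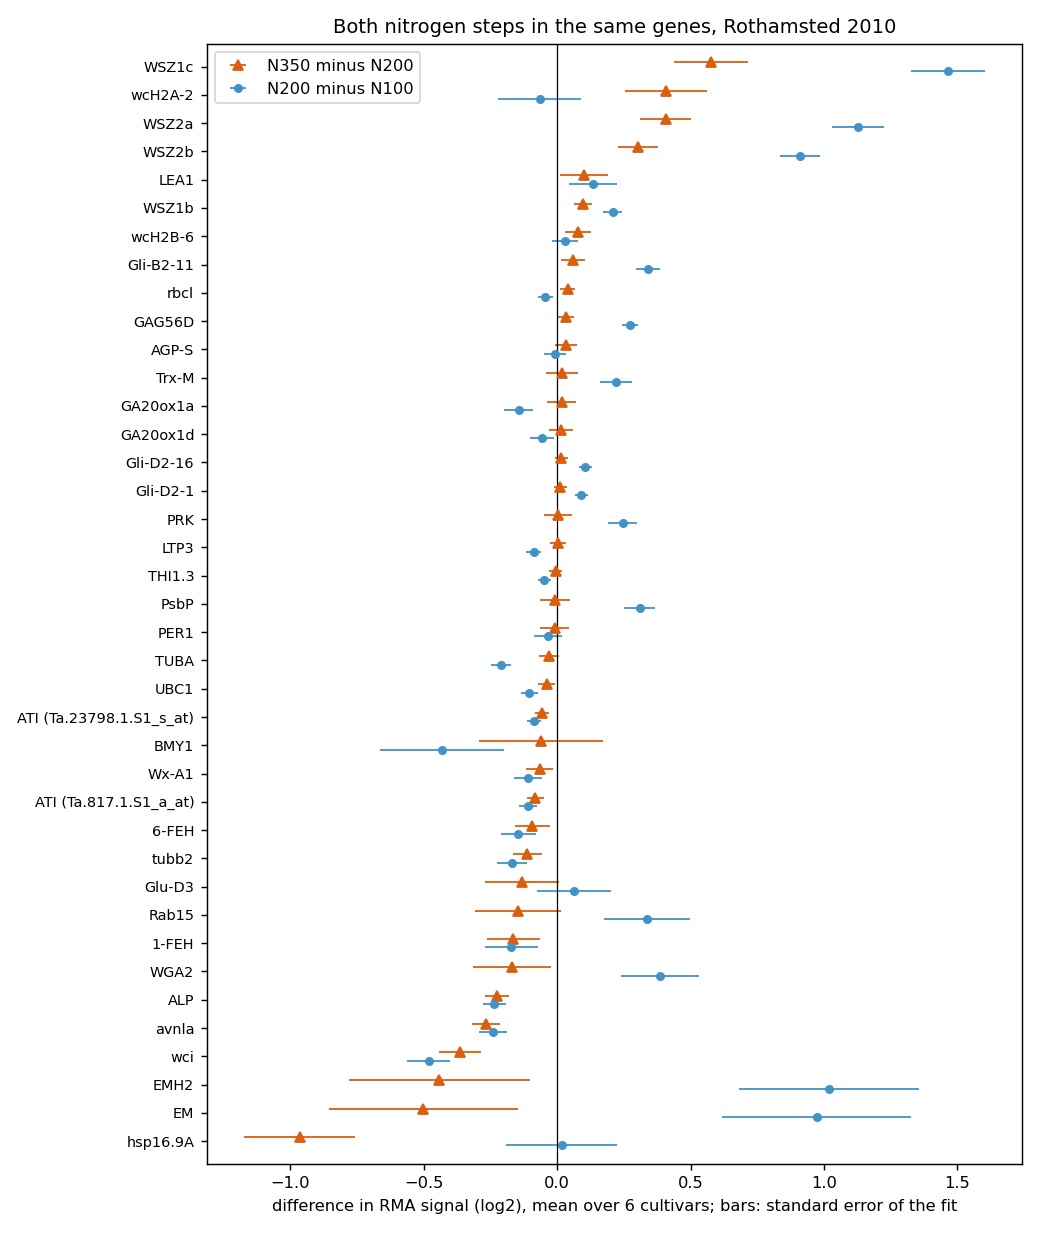
Differences on the log2 scale with standard errors (bars) for the probe sets of the named panel, N350 minus N200 (upper step) and N200 minus N100 (lower step) in Rothamsted 2010; both use the same 18 N200 arrays. For hsp16.9A the upper step is -0.97 and the lower 0.017, while the serpin WSZ1c stands at 0.58 in the upper step and 1.47 in the lower.

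Late embryogenesis abundant (LEA) proteins protect the maturing embryo against drying. The embryo and LEA list also holds WGA2, a lectin gene, and COR410, at the low mean of 3.51. All 11 probe sets of its 6 genes missed the threshold in both steps, with a median of -0.19 for the upper step and 0.54 for the lower. EM ranged from 5.81 to 12.19 at N100 (median 8.32), from 6.61 to 11.60 at N200 (median 9.29) and from 5.12 to 12.11 at N350 (median 8.67). These ranges covered most of each other, and single replicates of a cultivar differed by several log2 units: Cordiale had 8.89, 10.42 and 10.11 at N350 and 6.61, 10.93 and 10.74 at N200. The difference of EM was -0.50 (standard error 0.35, adjusted p = 0.714).

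EMH2, a relative of EM, differed by -0.44 (standard error 0.34, adjusted p = 0.743), Rab15, a dehydrin, by -0.15 (adjusted p = 0.836), WGA2, the embryo lectin wheat germ agglutinin, by -0.17 (adjusted p = 0.781) and LEA1 by 0.10 (adjusted p = 0.787). The cultivars went different ways, with list medians of 0.29 in Hereward, 0.27 in Cordiale and 0.12 in Marksman but -1.07 in Istabraq, -0.39 in Malacca and -0.38 in Xi_19. Those cultivar values were not tested as a list. The median of the list was -0.039 without Istabraq, -0.31 without Hereward, -0.034 without the 3 farthest arrays and -0.10 with array weights.

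Histones package DNA and are made mainly in dividing or endoreduplicating cells. All 18 probe sets of 5 histone H2A and H2B genes were above 0 over the upper step and none passed the test, with a median of 0.25 (0.033 to 0.41), beside 0.0075 over all probe sets. Of them 9 had an unadjusted p under 0.05, against 8.68% of all probe sets. Over the arrays, the list median of centred values ran from -0.443 to 0.83 at N100 (median -0.231), from -0.607 to 0.506 at N200 (median -0.0983) and from -0.49 to 0.867 at N350 (median 0.131), so the levels overlapped widely. By cultivar the median difference was 0.022 in Xi_19 and 0.466 in Marksman at the extremes. wcH2A-2 ranged from 5.07 to 6.91 at N350 (median 5.95) and from 4.84 to 6.14 at N200 (median 5.42), a difference of 0.41 (standard error 0.15, adjusted p = 0.409), and wcH2B-6 differed by 0.078 (adjusted p = 0.668). The probe sets of a histone family share sequence, and over the lower step their median was 0.00090. The median of the upper step was 0.131 without replicate 2 and 0.382 without replicate 3.

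Of the 99 called probe sets 92 had no informative gene name, and the 3 largest in each direction, among those of mean 6 or more with the same sign in 6 of 6 cultivars, are described without a name. A called probe set outside this choice had a larger fall, with a difference of -1.008. Of those chosen, the probe set with the largest fall ranged from 6.47 to 8.80 at N350 (median 8.04) and from 8.22 to 9.22 at N200 (median 8.68). It showed no overlap in 4 of 6 cultivars. It fell by 0.75 (standard error 0.13, adjusted p = 0.00599), with Hereward at -0.0048 and Istabraq at -1.24. The second fell by 0.66 (adjusted p = 0.0130), again without overlap in 4 cultivars, and the third by 0.65 (adjusted p = 0.0367). None of these 3 was called over the lower step, where they stood at 0.12, 0.28 and 0.25. Per cultivar, 2.68% (Xi_19) to 5.3% (Marksman) of all probe sets had every N350 replicate below every N200 replicate. The choice favours such a separation, so the counts without overlap are a description only.

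The unnamed probe set with the largest rise ranged from 5.22 to 6.91 at N100 (median 5.88), from 6.001 to 8.93 at N200 (median 7.32) and from 6.13 to 10.89 at N350 (median 8.59). Its N350 replicates were spread over almost the whole scale of the probe set, with 10.89, 8.89 and 8.85 in Marksman but 7.02, 8.89 and 10.38 in Malacca, against 7.08, 8.34 and 6.54 and 8.93, 8.62 and 8.39 at N200. The rise was 1.103 (standard error 0.25, adjusted p = 0.0398), a ratio of 2.15. The next of those chosen rose by 0.68 (adjusted p = 0.0262) and the third by 0.60 (standard error 0.11, adjusted p = 0.0110). Each of these showed no overlap of replicates in 2 cultivars. All 3 rises were also called higher over the lower step, at 1.44, 0.57 and 1.22. Per cultivar, 2.55% (Hereward) to 4.95% (Marksman) of all probe sets had every N350 replicate above every N200 replicate. The choice favours such a separation, so the counts without overlap are a description only here too.

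Within single cultivars, 3 replicates against 3, few probe sets passed. Marksman had 45 calls (0.0736%), 44 of them higher at N350 (0.0719%), Cordiale 1 (0.00163%, lower) and the other 4 cultivars 0. An unadjusted p under 0.05 was reached by 7.32% of probe sets in Marksman, 3.99% in Istabraq, 3.72% in Cordiale, 2.95% in Xi_19, 2.33% in Malacca and 2.07% in Hereward. limma's F test over cultivars called 0 probe sets, with 1357 at an unadjusted p under 0.05 (2.22%), so the upper step was not shown to differ between cultivars for any gene. The named genes with the smallest p in it were ALMT1-1, a malate transporter gene at the low mean signal of 4.06 at N350 and 4.08 at N200 (unadjusted p = 0.00465), a probe set of rbcl (0.0200) and Glu-D3 (0.0227), each with an adjusted p of 1. For the 81 falls the cultivar medians ran from -0.17 in Hereward to -0.46 in Istabraq, and for the 18 rises from 0.31 in Xi_19 to 0.59 in Istabraq.

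The 44 probe sets called higher in Marksman, chosen by that contrast, had a median difference of 1.095 there (0.64 to 2.43). All N350 replicates were above all N200 replicates in 26 of them, against 4.95% of all probe sets. The choice itself favours such a separation, so the 26 are a description only. Their median signal in Marksman was 7.73, 7.75 and 7.90 at N100, 7.57, 6.45 and 6.81 at N200 and 8.08, 7.99 and 7.99 at N350. Replicates 2 and 3 at N200 were thus the low ones, while N100 and N350 lay close together. Other cultivars had medians of -0.060 to 0.20, and the F test over cultivars called none of the 44 (lowest adjusted p = 0.427). Without replicate 1 Marksman had 139 calls, without replicate 2 it had 1 and without replicate 3 it had 0 (4772 at an unadjusted p under 0.05).

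The same step was measured at Rothamsted in 2009 on 18 N350 and 17 N200 arrays, none of them shared with 2010. limma called 0 of 61178 probe sets there, with 1450 (2.37%) at an unadjusted p under 0.05. The difference between the seasons was called for 0 probe sets, with 3135 (5.12%) at an unadjusted p under 0.05, so no single gene was shown to respond differently in 2010 and 2009. Of the 99 probe sets called in 2010, 66 had the same sign in 2009 (52 of 81 falls and 14 of 18 rises). The share of all probe sets with the same sign is not given here, and the 99 share arrays. The 66 therefore cannot be read as agreement between the seasons. Of the 99, 2 had an unadjusted p under 0.05 in 2009, and the largest 2009 difference was 0.30 in size. The median of the falls was -0.34 in 2010 and -0.028 in 2009, and that of the rises 0.47 in 2010 and 0.070 in 2009. The 2010 values chose these probe sets, which favours larger differences in 2010 than in another season. These medians are therefore no test of a difference between the seasons. Across all 61178 probe sets, which share their arrays and are no independent replicates, Pearson's r between the 2010 and 2009 differences was -0.028, and it was -0.041 over those of mean 6 or more.

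In 2009 wci averaged 13.62 at N350 and 13.57 at N200, a difference of 0.047 (standard error 0.058, limma, over 18 N350 and 17 N200 arrays), where 2010 had -0.36. Of the named genes wci had the smallest p for the difference between seasons, -0.41 (unadjusted p = 1.14e-04, adjusted p = 0.909). The S2_s_at probe set of ALP followed with -0.28 (unadjusted p = 8.36e-04, adjusted p = 0.914), then WSZ1c with 0.50 (unadjusted p = 0.00588, adjusted p = 0.914). For hsp16.9A the 2009 difference was 0.073 with a standard error of 0.51, and its difference between seasons of -1.04 was not called (adjusted p = 0.914). The 1st percentile of signals was 2.12 to 2.18 over the 2010 arrays and 2.29 to 2.36 over the 2009 arrays, and seasons were compared only through differences taken within each.

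**Figure D5:**
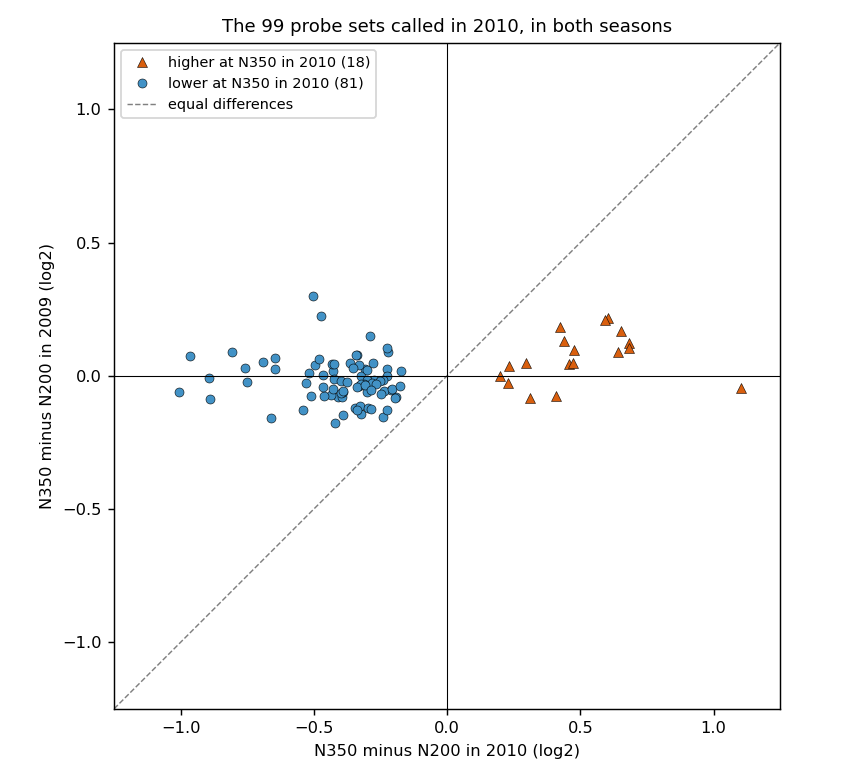
N350 minus N200 on the log2 scale for the 99 probe sets called in 2010, with 2010 on the x axis and 2009 on the y axis; the dashed line marks equal differences. The 81 falls and 18 rises lie close to 0 on the 2009 axis, with no difference there over 0.30 in size. The 2010 values chose these probe sets, which favours larger differences in 2010.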

How the data were processed

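Each array's deposited column holds log2 signals from RMA, which corrects the background, normalizes by quantiles and summarises the probes of a set, per the submitters' processing notes; the version of RMA is not given in the sources used here. Next, the 110 Affymetrix controls among 61288 probe sets were dropped, which left 61178. The platform annotation gave 1 gene to 1273 probe sets (771 genes, 770 matched to RefSeq), and 102 genes with 200 probe sets had an informative name. No sequences or positions were used here.

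limma 3.58.1 in R 4.3.3 (with the package data.table, 1.17.8) took the 18 groups of Rothamsted 2010, each with its own mean, from 54 arrays with 36 residual degrees of freedom. Contrasts averaged the 6 within-cultivar differences, tests were two-sided, and p-values were adjusted by Benjamini and Hochberg over 61178 probe sets and called under 0.05. The 2009 season (53 arrays) and both seasons together (107 arrays) were fitted likewise. The number of arrays limits the precision. On data simulated for N350 against N200, 58.2% of probe sets changed by 0.25 on the log2 scale were recovered and all of those changed by 0.5 or 1. Also called were 8 unchanged probe sets. The simulated noise was independent and had the same SD at every level, unlike the real arrays, so real recovery can be lower. In the real arrays WSZ1c, with a difference of 0.58, was not called.

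The members and gene lists were chosen with earlier results of these data known. Named genes were called probe sets with an informative name that averaged 6 or more on the higher side. They also had 1 sign in at least 5 of 6 cultivars. Described beside them was a panel of 38 genes, each taken through the probe set with the highest mean. Unnamed probe sets were the 3 largest called per direction, with a mean of 6 or more and 1 sign in 6 of 6 cultivars. Added to these were the 3 named genes with the smallest p per test of a difference. Other settings changed the arrays fitted, the replicate block, filter, normalization, weights and covariate, or left out replicates, cultivars or arrays. Leaving out the 3 arrays farthest from their group means and weights per nitrogen level were chosen after seeing the data, as were the other settings of the single-cultivar tests.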

Additional observations from a re-analysis of the deposited data

How the results depend on the processing

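The number of arrays and the spread between replicates limit these results, and other settings than those reported moved most counts. For N350 against N200, the 99 calls became 0 with only the 36 compared arrays, 719 with array weights, 63 with the 3' minus 5' covariate, 18 at a fold of at least 1.5 and 173 without the 3 farthest arrays. They ran from 0 to 193 with a replicate left out, and were 39 without Cordiale, 4 without Istabraq, 17 without Malacca, 0 without Marksman and 45 without Xi_19. The cause was not tested, except that fewer arrays enter each of the last fits. Counts stayed within 1.5 times of 99 with all 161 arrays (66, of which 39 were among the 99), probe sets of mean 6 or more (147), quantile normalization again (101), centred medians (86), an intensity trend (88), weights per nitrogen level (71) and without Hereward (74).

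The labels tie no shared origin to a replicate number, and the reported fit has no block. The deviations of same-numbered N350 and N200 arrays of a cultivar correlated above 0.1 in 14 of 18 pairs, not in all (-0.227 to 0.668). That 14 of 18 correlated best with their own number is a hint from the data of structure shared by number, which the reported fit leaves out. The replicate block tried was 1 effect per number over all cultivars, so pairing within a cultivar was not tested. With the replicate block the 99 calls became 133 and all 99 remained; the test between the steps went to 12, Marksman to 52 and the lower step to 4602.

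The 9 calls of the test between the steps became 30 with all arrays, 29 at a mean of 6 or more, 146 per kg and 0 to 30 without a replicate. The 3963 calls of the lower step ran from 786 to 2739 without a replicate. The F test over cultivars gave 4 with all arrays and 0 to 46 without a replicate. In single cultivars, Cordiale (1) gave 0 with all arrays and 0 without any replicate, Istabraq 0 to 20, Marksman (45) 124 with all arrays and 0 to 139, and Xi_19 0 to 1. The test between seasons gave 0 to 7 without a replicate.

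Over the settings of single genes, 735 values kept their side of the threshold, 56 lost a call, 14 gained one, and 40 changed sign, all of them for genes that were not called. With centred medians LTP3 was -0.0026 and PRK -0.0016, and with quantile normalization THI1.3 was 0.010. With array weights PRK was -0.018 and GA20ox1a -0.015, and with the covariate LTP3 was -0.0017, PRK -0.0054 and GA20ox1a -0.00061. Without the 3 farthest arrays LTP3 was -0.012, PRK -0.0035, GA20ox1a -0.011, Trx-M -0.012, PER1 0.030 and Rab15 0.013. Without Cordiale PsbP was 0.029 and without Hereward 0.012; without Istabraq LTP3 was -0.016, Trx-M -0.029, Glu-D3 0.043 and PER1 0.012; without Malacca LTP3 was -0.0072 and PER1 0.0037; without Marksman BMY1 and PsbP were both 0.019; without Xi_19 PRK was -0.022 and GA20ox1d -0.0040. With a replicate left out, the values ran from -0.28 to 0.056 for BMY1, -0.013 to 0.067 for GA20ox1a, -0.0075 to 0.032 for GA20ox1d, -0.0026 to 0.0080 for LTP3, -0.066 to 0.040 for PsbP, -0.0080 to 0.037 for Trx-M, -0.0011 to 0.077 for AGP-S, -0.37 to 0.073 for Glu-D3, -0.028 to 0.024 for PER1, -0.054 to 0.038 for PRK and -0.020 to 0.0059 for THI1.3.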

Other observations

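FKBP70, an immunophilin with peptidyl-prolyl isomerase activity that was singled out after its values were seen, ranged from 10.00 to 11.66 at N350 (median 10.92) and from 10.89 to 11.55 at N200 (median 11.39). N350 minus N200 was -0.37 (standard error 0.10, limma adjusted p = 0.140), which did not pass, and N200 minus N100 was -0.020. Its N350 replicates lay below all N200 replicates in 1 of 6 cultivars. The translation initiation factor gene Eif4B averaged 10.55 at N350 and 10.36 at N200, a difference of 0.19 (adjusted p = 0.449), against -0.050 over the lower step.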
